A study of Sus scrofa with 4 samples.

Results

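Collagens, proteoglycans and matricellular proteins are the matrix genes that the fibroblasts, reticular cells and smooth muscle of the spleen express. The set read here was a list of 8 such genes (COL1A1, COL1A2, COL3A1, DCN, LUM, FBN1, SPARC and POSTN), taken with every probe whose transcript accession is a pig RefSeq transcript of the gene. COL1A1 and COL3A1 had 0 probes named in this way and were not analysed here, which left 6 genes with 30 probes, of 3020 genes with a named probe on the array. Spleen RNA of Minnesota miniature swine was measured on 4 one-colour Agilent porcine arrays, each with 1 sample. The wild-type group (WT, genotype wildtype) had 3 arrays, and the other group had 1 array from a pig labelled IL2RG +/-, called KO here. IL2RG encodes the common gamma chain of several cytokine receptors, among them that for interleukin 2. KO pigs came from nuclear transfer of TALEN-edited cells and are described as monoallelic. The labels do not say whether the WT pigs were clones, and they give no age for either group. The file headers placed WT 1 and KO on slide 1, and WT 2 and WT 3 on slide 2.

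The splenic capsule, trabeculae and reticular meshwork are built of matrix. Fibrillar collagen, of which COL1A2 encodes the alpha 2 chain of type I, gives tensile strength, and fibrillin 1, the product of FBN1, forms microfibrils that carry elastin and store latent TGF beta. Decorin (DCN) and lumican (LUM) are small leucine-rich proteoglycans that bind collagen fibrils and set their spacing, and decorin also binds TGF beta. SPARC and periostin (POSTN) are matricellular proteins, which bind matrix and cells and are known for roles in matrix remodelling. SPARC is also stored in platelets.

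The share of spots well above background ranged from 66.1% to 72.7% over the 4 arrays, and 0 spots were saturated. The targeted gene was lowest in KO on both of its probes, with log2 differences from the WT mean of -0.77 and -2.12 (limma, adjusted p = 0.578 and 0.403). Across the 33464 probes tested, 0 (0.0%) reached both an adjusted limma p of 0.05 and a 2-fold difference. At an unadjusted limma p under 0.05 there were 3775. Each level given here is a log2 signal from which the 75th percentile of its array was subtracted, so that 0 stands for this percentile. A difference means KO less the mean of the WT arrays, except where another pair is named. Levels of different genes come from different probes and were not set against each other, apart from the summed signals of marker lists. The KO value has no replicate, and an exact permutation test over 4 arrays cannot give a p below 0.25.

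On every probe of DCN and POSTN, KO was above each of the 3 WT arrays and more than 2-fold above their mean, whereas COL1A2 and FBN1 lay among the WT spleens. LUM depended on the probe, and SPARC differed mainly among the WT spleens. On the brightest probe of each gene, 3 of the 6 genes had KO above all 3 WT arrays (DCN, LUM and POSTN), where 27.0% of all probes tested did, and 0 had KO below all of them, where 34.9% did. At least 2-fold higher were 2 of the 6, against 7.71% of all probes and 11.4% of the brightest 8366 probes, to which the main probes of DCN, COL1A2 and SPARC belong. An unadjusted limma p under 0.05 was reached by the same 2 genes, against 11.3% of all probes, and 0 of the 6 passed adjustment over all probes. The median difference over the 6 genes was 0.21, beside -0.11 over all probes. With tissue RNA, a change in the number of cells that express a gene and a change in the RNA of each such cell cannot be told apart.

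**Figure D1:**
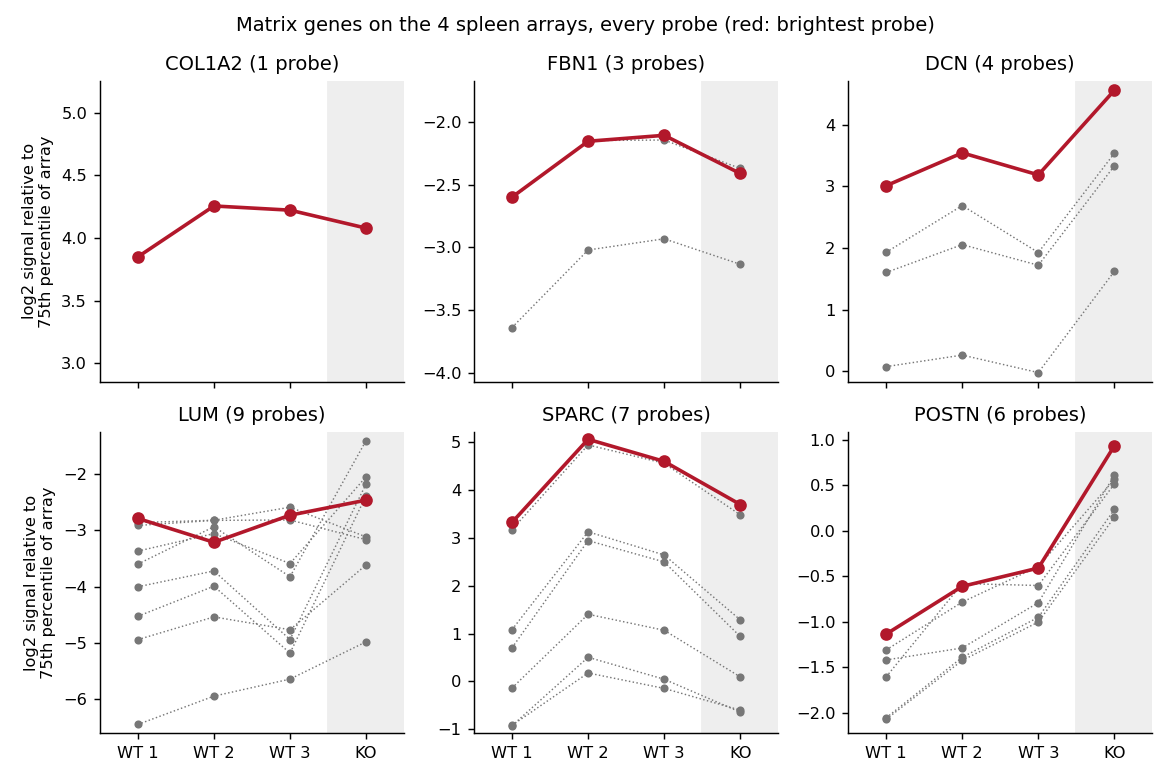
Log2 signal after subtraction of the array's 75th percentile (y axis, with its own range in each panel) on the 3 WT arrays and the KO array (x axis, KO shaded). Each line joins the 4 values of 1 probe and implies no order of the arrays, red marks the brightest probe of the gene, and the 4 DCN probes and the 6 POSTN probes are all highest in KO.

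The proteoglycans are described first. DCN, whose transcript on the array is NM_213920, was read by 4 probes. Its brightest probe gave 3.01, 3.54 and 3.19 on WT 1, WT 2 and WT 3, and 4.56 on KO, from processed signals of 5159, 9520 and 7458 in WT and 15230 in KO. The KO spleen was thus above all 3 WT spleens, which differed from each other by less than KO differed from the highest of them. The WT mean was 3.25 ± 0.27 (SD, n = 3), and KO exceeded it by 1.31 (standard error 0.34), a 2.48-fold higher signal that did not pass the limma threshold (adjusted p = 0.410). The other 3 DCN probes gave differences of 1.36, 1.54 and 1.52, so all 4 probes had KO above the WT range. Probes of 1 gene share the same RNA and are not replicates. The difference of the brightest probe lay at percentile 95.3 of all probes tested and at percentile 90.9 of the 2742 named genes tested.

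LUM, the neighbour of DCN in the assembly Sscrofa11.1 with 0 annotated genes between them, was dim and was read by 9 probes that disagreed. Its brightest probe gave -2.79, -3.21 and -2.73 on WT 1, WT 2 and WT 3, and -2.46 on KO. That put KO just above the WT arrays, with a difference of 0.45 and a standard error of 0.34 (limma, adjusted p = 0.631). The next brightest pair of probes had KO below the WT range, at differences of -0.36 and -0.32. The other 6 probes had KO above the WT range, at differences from the WT mean of 1.03 to 2.18. The fourth brightest, for example, gave -3.60, -2.94 and -3.82 in WT and -1.41 in KO, with a difference of 2.05 (limma, adjusted p = 0.393). On that probe the KO spleen stood apart from the WT spleens, which the brightest probe did not show to the same extent. Of the 9 LUM probes, 7 had KO above and 2 below all WT arrays, and 8 were well above background on all 4 arrays. The dimmest was well above background on KO alone. The mean difference over the 9 probes was 1.06, so the size of the LUM difference depended on which probe stood for the gene, and why the probes differ was not tested.

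**Figure D2:**
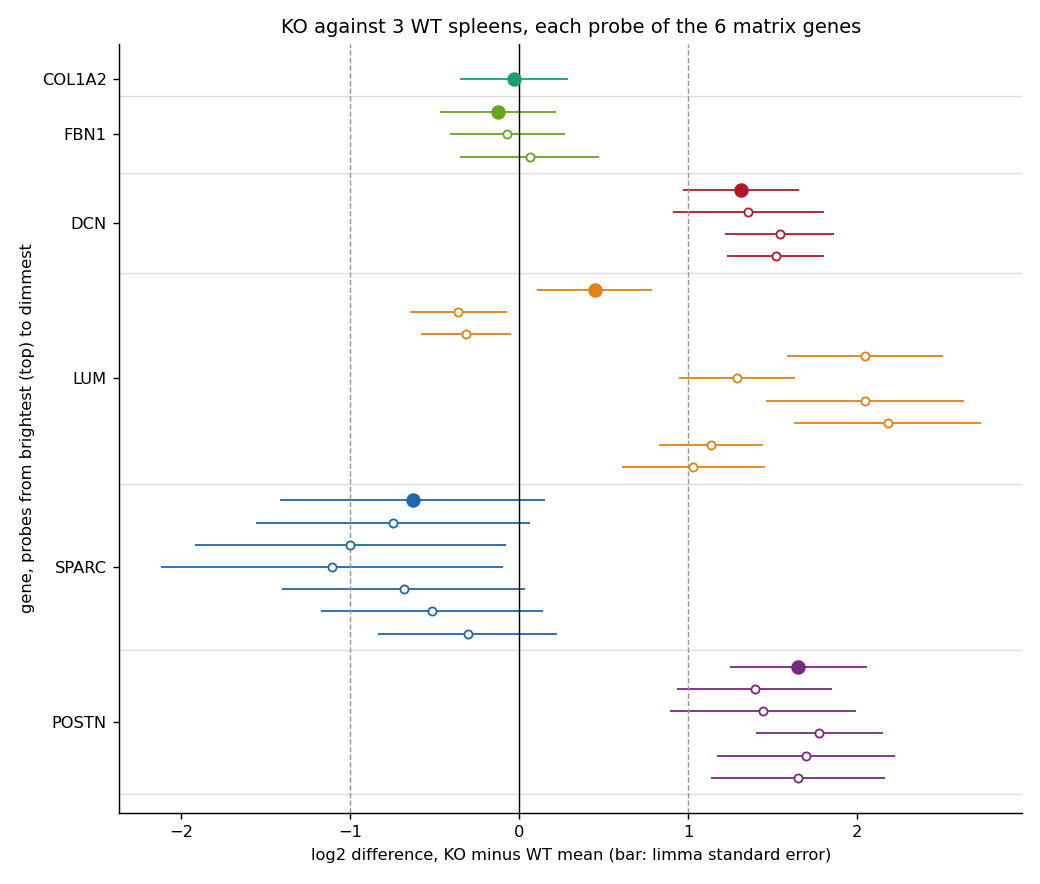
Log2 difference of KO from the WT mean (x axis) for each of the 30 probes of the 6 genes (y axis, probes from brightest to dimmest within a gene). Filled points are the brightest probe, bars are the standard error from limma and dashed lines mark 2-fold, and the LUM probes run from -0.36 to 2.18 while the 4 DCN probes stay between 1.31 and 1.54.

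Of the matricellular genes, POSTN was read by 6 probes, 5 of transcript NM_001206347 and 1 of NM_001206351. The brightest gave -1.13, -0.61 and -0.41 on WT 1, WT 2 and WT 3, and 0.94 on KO, from processed signals of 292, 535 and 618 in WT and 1236 in KO. KO was above every WT spleen, and WT 1 was the lowest of the 4 arrays on all 6 probes. The WT mean was -0.72 ± 0.37 (SD, n = 3), and KO exceeded it by 1.65 (standard error 0.40), a 3.14-fold higher signal (limma, adjusted p = 0.400). The 6 probes gave differences between 1.39 and 1.78. The difference of the brightest lay at percentile 97.2 of all probes tested and at percentile 94.2 of the named genes.

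SPARC, of transcript NM_001031794, was read by 7 probes. The brightest gave 3.33, 5.07 and 4.60 on WT 1, WT 2 and WT 3, and 3.70 on KO. KO thus lay between WT 1 and the other WT spleens, and the same order was seen on all 7 probes. The WT SD was 0.90, the widest of the 6 genes and at percentile 87.0 of all probes. The difference of KO from the WT mean was -0.63 (standard error 0.79; limma, adjusted p = 0.757), and it ranged from -1.11 to -0.31 over the 7 probes. WT 1 was 1.51 below the mean of WT 2 and WT 3 on the log2 scale, with values of 3.33 against 5.07 and 4.60. A drop of at least 2-fold in WT 1 against those arrays was seen for 14.5% of all probes and for 1 of the 6 genes, SPARC.

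The collagen and fibrillin genes showed the smallest differences. COL1A2, the only fibrillar collagen of the list with a probe (transcript NM_001243655), gave 3.85, 4.25 and 4.22 on WT 1, WT 2 and WT 3, and 4.08 on KO. KO was inside the WT range and differed from the WT mean of 4.11 ± 0.23 (SD, n = 3) by -0.03 (standard error 0.32; limma, adjusted p = 0.976). FBN1 (transcript NM_001001771) had 3 probes, and the brightest gave -2.60, -2.15 and -2.11 on WT 1, WT 2 and WT 3, and -2.41 on KO. Its difference was -0.12 (standard error 0.34; limma, adjusted p = 0.897), and the 3 probes ranged from -0.12 to 0.06 with KO inside the WT range on each. The sign of both genes turned with the scaling, to 0.21 for COL1A2 and 0.12 for FBN1 when the arrays were shifted to their medians. With 1 KO array, a true difference of the size of these standard errors would not have been detectable.

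Because WT 1 shared a slide with KO, KO was also set against each WT array alone. DCN was above WT 1 by 1.55, above WT 2 by 1.02 and above WT 3 by 1.37. POSTN was above the same arrays by 2.07, 1.54 and 1.34. On their brightest probes both genes were therefore at least 2-fold higher in KO than on each WT array, on the same slide and on the other one. This did not hold on every probe, since the second brightest DCN probe gave 3.54 in KO against 2.69 in WT 2, and the second brightest POSTN probe gave 0.57 in KO against -0.39 in WT 3. At least 2-fold above WT 1 were 2 of the 6 genes, against 7.94% of all probes. LUM on its brightest probe differed by 0.32, 0.75 and 0.27. COL1A2, FBN1 and SPARC were higher in KO than in WT 1, by 0.23, 0.19 and 0.37, and lower than in both arrays of slide 2. For SPARC the differences from WT 2 and WT 3 were -1.37 and -0.90. The WT spleens of slide 2 were above WT 1 for 5 of the 6 genes, and slide and animal cannot be told apart among the WT arrays.

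**Figure D3:**
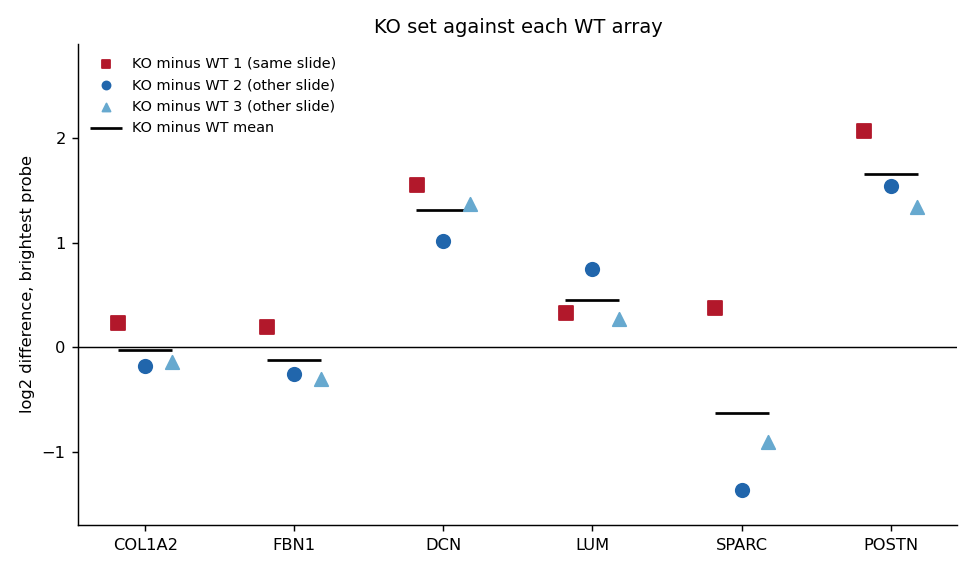
Log2 difference of KO from WT 1 on the same slide (squares), from WT 2 (circles) and from WT 3 (triangles) on the other slide, for the brightest probe of each gene, with the difference from the WT mean as a black bar. The 3 comparisons share the KO array, and all of them are above 1 for DCN and POSTN, while COL1A2, FBN1 and SPARC change sign between WT 1 and the other WT arrays.

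The wider matrix was read from 8 lists of genes that make, bind, cut or signal through matrix. Besides the 6 genes, 61 listed genes were tested, of which 43 were higher and 18 lower in KO, 34 were above and 8 below the WT range, 9 had an unadjusted limma p under 0.05 and 0 passed adjustment. Of all probes tested, 27.0% were above the WT range, 34.9% below it and 11.3% had such a p, and no list was tested against them. The median difference of the 61 genes was 0.33, and these are named genes, which ran higher than all probes. Among collagens, the type V chains COL5A1, COL5A2 and COL5A3 differed by -0.46, 0.25 and -0.29 and the type X chain COL10A1 by -0.01. The 4 probes of COL5A2 ran from -0.46 to 0.25, so its sign depended on the probe, and the 3 of COL5A1 from -0.57 to -0.11. On brightest probes and with COL1A2, 1 of 5 collagens (COL5A2) was above and 1 below the WT range, and 0 were 2-fold apart. The 4 tested genes of collagen synthesis spread further. P4HA1, a subunit of the enzyme that hydroxylates collagen prolines, was 1.68, 1.44 and 1.04 in WT. In KO it was 2.52, higher by 1.14 (limma, adjusted p = 0.432), and its 7 probes ranged from 1.05 to 1.36. FKBP10, a collagen chaperone, differed by 0.58, the collagen chaperone SERPINH1 by -0.05 and the crosslinking enzyme LOX by -0.75.

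Proteoglycans had the highest list median, at 1.31 over 7 tested genes including DCN and LUM. Of the 7, 5 were above and 1 below the WT range, beside 27.0% and 34.9% of all probes. VCAN, the large hyaluronan-binding proteoglycan versican, gave -3.30, -3.66 and -3.34 in WT and -1.05 in KO, which was higher by 2.38 (limma, adjusted p = 0.304). KO was above each WT spleen for VCAN as it was for DCN. The cell surface proteoglycan SDC4 differed by 1.66 and HAPLN1, a link protein of hyaluronan matrix, by 1.50. In the other direction, ASPN, a relative of decorin, was -2.81, 0.20 and -0.04 in WT and -2.52 in KO, so it was low in both arrays of slide 1, with a difference of -1.63. The cartilage proteoglycan ACAN differed by -1.78, and its 3 probes ran from -1.78 to -0.96. It gave -3.20, -1.56 and -1.59 in WT and -3.89 in KO, so it too was low on both arrays of slide 1. The elastic fibre list had FBN1 and MFAP2, a microfibril protein, which differed by -0.56 and was also low on both arrays of slide 1.

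The matricellular list had 11 tested genes, of which POSTN alone was at least 2-fold apart. Its median of 0.26 depended on WT 1, without which it was 0.016. The bone matrix protein SPP1 differed by 0.67 and tenascin C (TNC) by 0.56, both above the WT range. The lowest were VTN at -0.88, SPARC at -0.63 and the laminin chain LAMC1 at -0.58, each inside the WT range. VTN gave -3.55, 0.23 and -3.87 in WT and -3.28 in KO, so KO was below WT 2 alone. LAMC1 gave 2.72, 3.49 and 3.73 in WT and 2.73 in KO, close to WT 1 on the same slide. Of 15 matrix proteases and inhibitors, 13 were higher in KO, with 12 above and 1 below the WT range, beside 27.0% and 34.9% of all probes, and a median of 0.63. TIMP1, an inhibitor of matrix metalloproteinases, was 4.14, 3.89 and 4.13 in WT and 5.77 in KO, higher by 1.72 (limma, adjusted p = 0.330). The urokinase gene PLAU was 2.14, 2.03 and 2.28 in WT and 3.91 in KO, higher by 1.76 (limma, adjusted p = 0.319). KO stood outside the narrow WT ranges of both genes. The sheddase ADAM17 differed by 1.89, the gelatinase MMP9 by 1.06 and the gelatinase MMP2 by -0.22. MMP1, well above background on 1 array, differed by -1.44 and ADAM10 by 0.27.

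The TGF beta pathway drives matrix genes in fibroblasts. Of its 17 tested genes, 11 were above and 3 below the WT range, beside 27.0% and 34.9% of all probes, with a median of 0.34. The ligand TGFB1 was 2.81, 2.81 and 2.77 in WT and 4.17 in KO, higher by 1.37 (limma, adjusted p = 0.371). The ligand TGFB3 differed by 1.23 and the receptor TGFBR1 by 1.46. The lowest were the coreceptor ENG at -1.07, the ligand BMP4 at -0.88 and the inhibitory SMAD7 at -0.44. Matrix receptors had a median of 0.19 over 6 genes. The integrin chains ITGAV, ITGB1, ITGB3 and ITGB5 differed by 0.06, 0.34, 0.28 and 0.10, the collagen receptor DDR1 by 0.45 and ITGA2 by -1.21. The probes of ITGB3 ran from -1.05 to 0.28, those of ITGAV from -0.06 to 0.47 and those of ITGB1 from -0.05 to 0.34. Those of ITGA2 ran from -1.21 to -0.06.

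**Figure D4:**
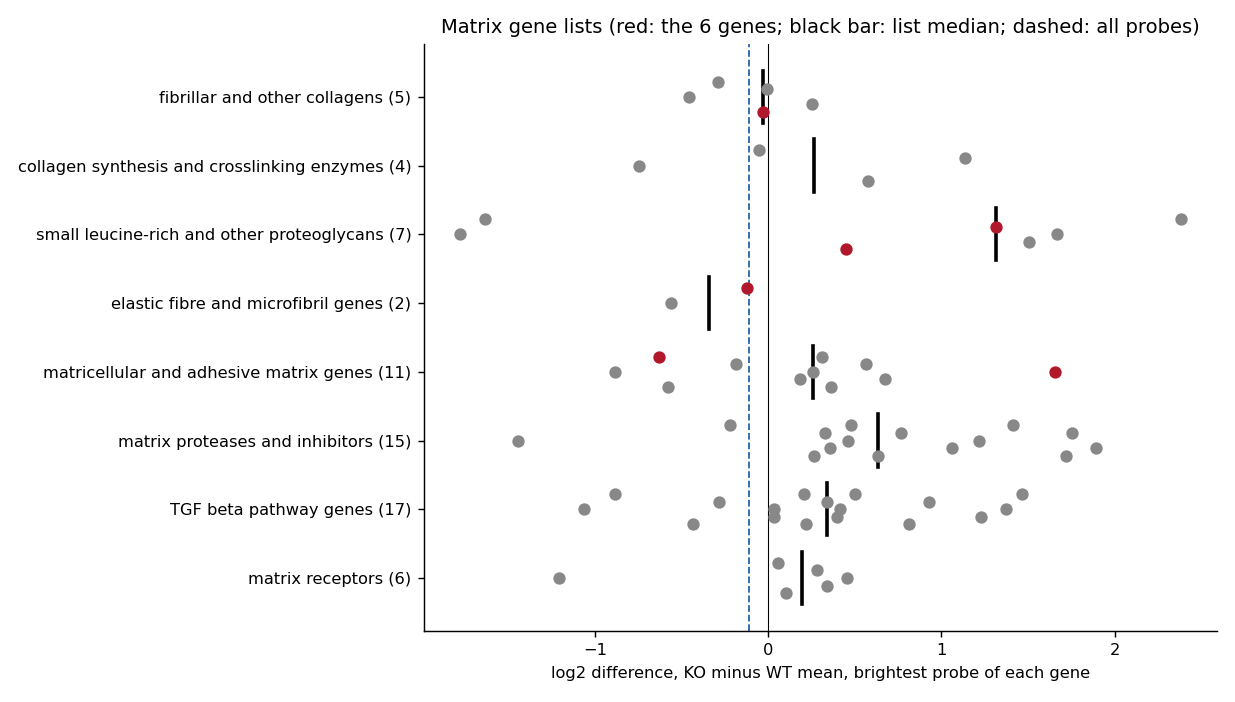
Log2 difference of KO from the WT mean (x axis) for the brightest probe of each tested gene in 8 matrix gene lists (y axis, number tested in parentheses). Red points are the 6 genes, black bars are list medians, and the dashed line is the median of all probes at -0.11, while the list medians run from -0.34 for elastic fibre genes to 1.31 for proteoglycans.

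Markers of cell types were read beside these genes. Fibroblast and reticular genes had 5 tested of 6 named, all well above background on every array, with LEPR the exception that was not well above background on any. They had a median of -0.10, with CCL19 at 1.03, VCAM1 at 0.38, THY1 at -0.10, CXCL12 at -0.49 and CCL21 at -2.18, the last a chemokine of T zone stroma. The 6 smooth muscle genes had a median of 0.17 (0.057, 0.44 and 0.0039 without WT 1, WT 2 and WT 3), from MYL9 at -0.29 to DES at 0.36, with ACTA2 at -0.00. Of the 6 genes, 1 was above the WT range, beside 27.0% of all probes. The summed linear signal of the 6 genes, in units of the 75th percentile, was 273 to 390 in WT and 332 in KO. On their brightest probes, the muscle markers other than DES were within the WT range. The probes of TPM2 ran from 0.27 to 0.78 and those of ACTA2 from -0.0048 to 0.36. The part of muscle in the differences of DCN and POSTN was not tested.

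Platelet markers moved with SPARC in part. ITGA2B, the platelet integrin chain, gave -0.00, 2.09 and 4.33 on WT 1, WT 2 and WT 3, and -0.01 on KO. PPBP, a platelet chemokine, gave -3.06, 1.27 and 3.73 in WT and -0.89 in KO. These markers were low on both arrays of slide 1, as SPARC was, but highest on WT 3, whereas SPARC was highest on WT 2. The red blood cell genes HBE1, KLF1 and EPOR were low on both arrays of slide 1 as well. HBE1, at -1.36, 2.80 and 2.53 in WT and 0.67 in KO, had the same order of arrays as SPARC. All 5 tested platelet genes were lower in KO than the WT mean, with a median of -2.15, which was -3.33 without WT 1, -1.05 without WT 3 and -0.00084 for KO against WT 1 alone. Their summed signal was 6.30, 19.2 and 79.8 in WT and 3.93 in KO. Their part in the SPARC values was not tested.

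Macrophage markers were highest on KO, as DCN and POSTN were, but not all of them shared their order among the WT arrays. On the brightest probe of each gene, WT 1 was the lowest WT array for DCN, POSTN and CD163. For DCN this held on only 2 of its 4 probes. WT 1 was the highest WT array for CD14, at 0.52 against 0.22 and 0.25, and for FCGR1A, at -2.41 against -4.99 and -5.38. All 5 tested macrophage genes were above the WT range in KO, beside 27.0% of all probes, with a median of 3.17. Their summed signal was 13.3 to 29.9 in WT and 194 in KO. This sum is weighted by the brightness of each probe, with CD163 at 7.48 and CD14 at 3.41 in KO, and does not measure cell content. CD163, a haemoglobin scavenger receptor, differed by 3.17 and CD14 by 3.08. Their part in the differences of DCN and POSTN was not tested. Of the remaining markers, those of endothelium had a median of -1.02 over 8 genes (-0.19 for KO against WT 1 alone), with SELE in the other direction at 3.75. SELE was well above background on only 2 arrays, with -5.72, -7.03 and -5.65 in WT and -2.38 in KO. The median was -2.33 over 3 red blood cell genes, -4.28 over 4 B cell genes, 0.91 over 6 T cell genes, -0.19 over 5 adipose genes and -0.62 over 4 pancreas genes. CD72 went against the other B cell genes, at 1.49, and CD3E against the other T cell genes, at -0.53. For KO against WT 1 alone the median was 1.51 for red blood cells and 0.18 for T cells, and without WT 3 it was 0.38 for T cells. The adipose genes went in both directions. ADIPOQ, LEP and CIDEC were inside the WT range, with differences of -0.19, -0.23 and 0.22. LPL differed by -1.02 and was below the WT range. FABP4 differed by 1.43, but its KO level of -0.693 was barely above the -0.695 of WT 3. PNLIP, a defining pancreas gene, was well above background on 1 array.

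**Figure D5:**
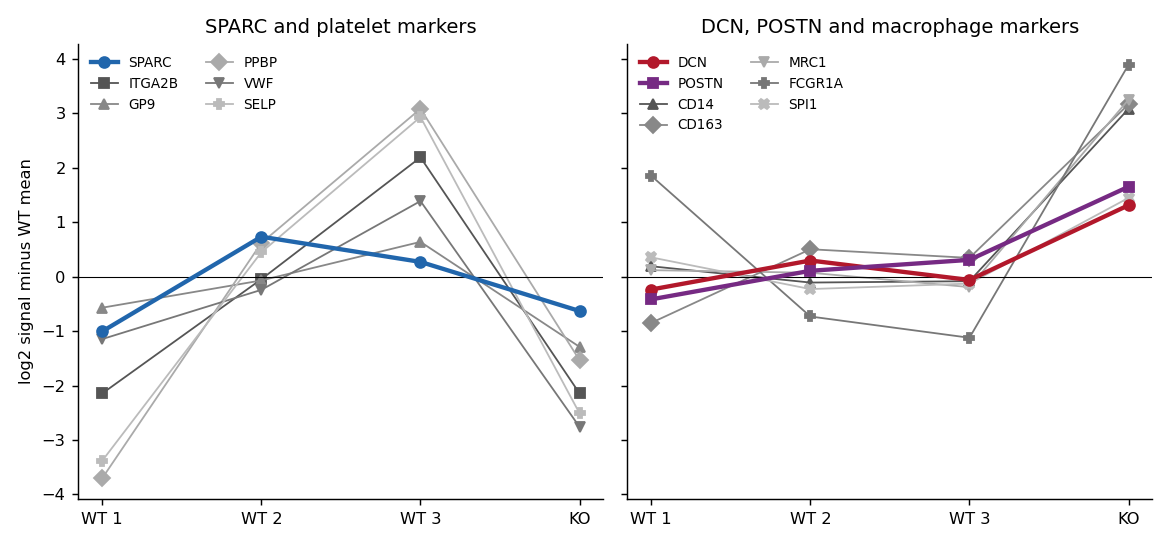
Log2 signal minus the mean of the 3 WT arrays (y axis) on each array (x axis), for SPARC with 5 platelet markers (left) and for DCN and POSTN with 5 macrophage markers (right), lines joining 1 gene without implying an order of arrays. SPARC and the platelet markers are below the WT mean on WT 1 and KO, and DCN, POSTN and the macrophage markers are all highest on KO.

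The 6 genes did not share a pattern over the 4 arrays. After each gene was centred on its own mean, the nearest pair was COL1A2 and FBN1, with a root mean square difference of 0.06 on the log2 scale, followed by DCN and POSTN at 0.27. The farthest pair was POSTN and SPARC, at 1.08. The mean profile of the 6 was -0.46, 0.08 and 0.06 on WT 1, WT 2 and WT 3, and 0.33 on KO. Among 2426 other named genes well above background on all arrays, those near to that mean included RHOB at 0.05, and SRI, FKBP10 and TEAD4 at 0.07 each. FKBP10 also stood in the list of collagen synthesis genes. The distances are a description over 4 arrays.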

How the data were processed

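Spleen RNA in 3 WT samples and 1 IL2RG KO sample was analysed on 4 one-colour arrays, grouped by sample title. Per the labels, the authors amplified the RNA and labelled it with Cy3, whereas the methods of the study describe 2 dyes. The deposited intensity of each spot came from Agilent Feature Extraction 11.0.1.1, and the processed signal, corrected for background by that software, was used. The deposited series table held log2 values of 27421 probes on a common distribution and served as an alternative.

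Spots other than controls (43803, for 43603 probes) were kept unless marked as outliers, which removed 28 probes. From each log2 signal the array's 75th percentile was taken away, and replicate spots of one probe were averaged. The 33464 probes well above background on at least 1 array were tested with limma 3.58.1 in R 4.3.3 (lmFit, eBayes, two-sided), with Benjamini-Hochberg adjustment over all of them, and the script was tested on simulated data. The fit had 2 residual degrees of freedom, all from WT, and 1.93 prior ones, so the fit assumes for KO the variance seen among WT. The number of arrays limits the precision, and the labels do not say whether the WT samples came from separate animals. A planned correction by normexp on mean signals used median signals, which the files hold.

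Accessions were matched without versions to RefSeq transcripts of Sscrofa11.1, used for names and gene order only, and 15.3% of probes were named. A gene was represented by its brightest probe (mean of the 4 arrays), and all its probes were read. Named genes were the 6 genes, every tested gene of a list with up to 6 of them or the 3 highest and 3 lowest, a fixed set of matrix genes wherever tested (among them TGFB1, MMP2, MMP9, TIMP1, LOX and SERPINH1), and the 5 genes nearest to the mean profile, of which 1 is not reported here. Genes and lists were chosen with earlier results of these data known. Other scalings, background correction, filters, tests, the slide as a block and the loss of each WT array were tried. Tables were handled with pandas 2.3.3 and numpy 2.4.6 (Python 3.11.15).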

Additional observations from a re-analysis of the deposited data

How the results depend on the processing

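No paired analysis was possible, since there was 1 KO array and the labels pair it with no WT sample. All alternatives below were planned. The count of probes past the adjusted threshold was 0 in the report, 4 under normexp, 6 under eBayes with a trend and 1333 under the methods' t-test without adjustment, and 0 under that t-test with Benjamini-Hochberg adjustment. The study names a Bonferroni correction for its unpaired t-test, which was not run here and cannot call more than Benjamini-Hochberg. It was 0 without each WT replicate (0 to 0), while probes at least 2-fold apart with p under 0.05 before adjustment (limma) numbered 3172 with all arrays, 7734 without WT 1, 1511 without WT 2 and 1822 without WT 3. DCN and POSTN kept their direction under all 12 alternatives, at 1.10 to 1.55 and 1.44 to 2.07, with adjusted limma p from 0.111 to 0.980 and from 0.0844 to 0.980. LUM kept its direction at 0.25 to 1.06, the highest being the mean over its probes. COL1A2 turned to 0.21 when arrays were shifted to their medians and to 0.23 with slide as a block. Without 1 WT replicate it ranged from -0.16 to 0.043, being positive without WT 2 and, at 0.026, without WT 3. FBN1 turned to 0.053 under quantile normalisation, 0.12 under the median shift, 0.039 in the deposited table and 0.19 with the block, and SPARC to 0.37 with the block, which equals KO minus WT 1 by construction. SPARC was -1.13 without WT 1. The median of the 6 genes was 0.51 with the mean over probes, 0.45 under the median shift, 0.060 under normexp and 0.097 with the percentile taken over bright probes. The median over all probes was -0.11, -0.02 under quantile normalisation and 0.13 under the median shift.

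Of the list medians, collagens turned to 0.21 under the median shift, 0.17 with the block, and 0.011 and 0.026 without WT 2 and WT 3, and were -0.16 without WT 1. Collagen synthesis genes were 0.14 under quantile normalisation, 0.50 under the median shift, 0.75 with the block and -0.019 to 0.42 without 1 WT replicate, the lowest without WT 1. Matricellular genes were 0.060 under quantile normalisation, 0.50 under the median shift, 0.60 with the block and 0.016 to 0.47 without 1 WT replicate. Proteases were 0.87 under the median shift and 0.39 with the block, and receptors -0.042 under quantile normalisation and 0.43 under the median shift. Among markers, fibroblast genes turned to 0.14 under the median shift and ranged from -0.25 to 0.049 without 1 WT replicate, the highest without WT 1. Adipose genes turned to 0.15 under quantile normalisation and 0.050 under the median shift, and ranged from -0.20 to 0.075 without 1 WT replicate, the highest without WT 3. With the block, pancreas turned to 0.19 and red blood cells to 1.51. For these changes the cause was not tested.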

Other observations

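Each of the 6 genes was also set beside its own nearest neighbours among 2431 named genes, a reading chosen after the values had been seen. Nearest to DCN were PGA5, which encodes a pepsinogen, and SGK1, a kinase induced by serum and glucocorticoids, both with a root mean square difference of 0.07 on the log2 scale, and the heat shock gene HSPH1 at 0.11. These genes were higher in KO by 1.29, 1.27 and 1.10. Nearest to POSTN were the chemokine gene CCL20 at 0.13, the Langerhans cell lectin CD207 at 0.15 and the fusion receptor gene DCSTAMP at 0.17, with differences of 1.37, 1.43 and 1.63. Nearest to SPARC were TSPAN1 and PSORS1C2 at 0.08, and then the microfibril gene MFAP2 at 0.10, which differed by -0.56 and was, like SPARC, lower on WT 1 and KO than on WT 2 and WT 3. COL1A2 had LATS2 at 0.0051 and FBN1 had TPBG at 0.0083 as their nearest. The adjusted limma p of the genes named here was at least 0.345.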
